A study of Homo sapiens with 6 samples.

Results

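Stanniocalcins, insulin-like growth factor (IGF)-binding proteins and tissue inhibitors of metalloproteases (TIMPs) are secreted proteins that recur in descriptions of the senescence-associated secretory phenotype. The 9 genes described here were chosen by symbol: STC1, STC2, IGFBP2, IGFBP3, IGFBP4, IGFBP5, IGFBP6, TIMP1 and TIMP2, among 20045 genes named on the array. They have 12 probes of 47321. The study used Illumina HumanHT-12 V4.0 beadchips to compare 3 samples given TBK1 inhibitor II, a compound whose name gives the kinase TBK1 as its target, with 3 samples given vehicle only, each for 3 days. All 6 samples are labelled as the line HCC1954, which is described as HER2-positive and comes from a breast carcinoma. The labels do not say whether replicates came from separate cultures, and the p-values here therefore speak for the spread among these 6 samples alone, part of which may be technical.

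IGF-binding proteins hold IGFs in the extracellular space and so limit or prolong their access to the IGF receptor. Proteases such as PAPPA cut some of these binding proteins and free the IGF, and both stanniocalcins are known inhibitors of PAPPA. TIMPs block matrix metalloproteases and related enzymes at the cell surface and in the matrix. Arrested or senescent cells are known to secrete several members of each family, with a composition that varies by cell type and trigger.

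Median signal intensity per array was 110.7 to 130.7 in the inhibitor samples and 98.5 to 138.1 in the vehicle samples, and the number of detected probes was 19676 to 20741 and 18325 to 20127 in the same order of groups. A probe counted as detected on an array where its detection p-value was under 0.05. Genes were tested where a probe was detected on at least 3 of the 6 arrays, and 11582 genes passed this filter. Breast epithelial markers were found only in part: KRT8, KRT18, EPCAM and CDH1, 4 of 13 fixed markers, were detected on all 6 arrays, while KRT7, KRT19, CLDN3, CLDN7 and ESRP1 were detected on 0. Of 11 genes in the chromosomal region of ERBB2, the gene of HER2, 8 were detected on all 6 arrays (ERBB2, STARD3, MIEN1, PGAP3, CDK12, GSDMB, ORMDL3 and MED1) and GRB7 and PNMT on 0. The median signal intensity of ERBB2 was 405.3, and its mean level was at percentile 59.4 of tested genes. These markers bear out the cell line label only in part, and the samples are called by their label only. Of the region's 8 tested genes only GSDMB passed, against 5.45% of all genes tested. Its log2 fold change was 1.19 ± 0.23 (SE, limma adjusted p = 0.0297). GSDMB did not pass without any 1 inhibitor sample (0.0908 to 0.121) or without vehicle replicate 1 (0.0559). By limma, neither gene of the labels passed: ERBB2 differed by -0.34 ± 0.15 (log2, SE; adjusted p = 0.217) and TBK1 by 0.10 ± 0.17 (adjusted p = 0.753).

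STC1 rose with the inhibitor, and it was the only one of the 7 tested genes of the set that passed the test. Over all 11582 genes tested, 5.45% passed in either direction, 3.59% higher and 1.86% lower. Of the other tested members, IGFBP5 had a positive log2 fold change and IGFBP2, IGFBP6, STC2, TIMP1 and TIMP2 had negative ones, with a median of -0.13 over the 7 members against 0.03 over all genes. IGFBP3 and IGFBP4 were too dim for the test. In 4 of the 7 members the arrays of both groups did not overlap, higher with the inhibitor in STC1 and IGFBP5 and lower in IGFBP2 and TIMP1. Such separation was common in these arrays, at 31.5% of all genes tested.

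**Figure D1:**
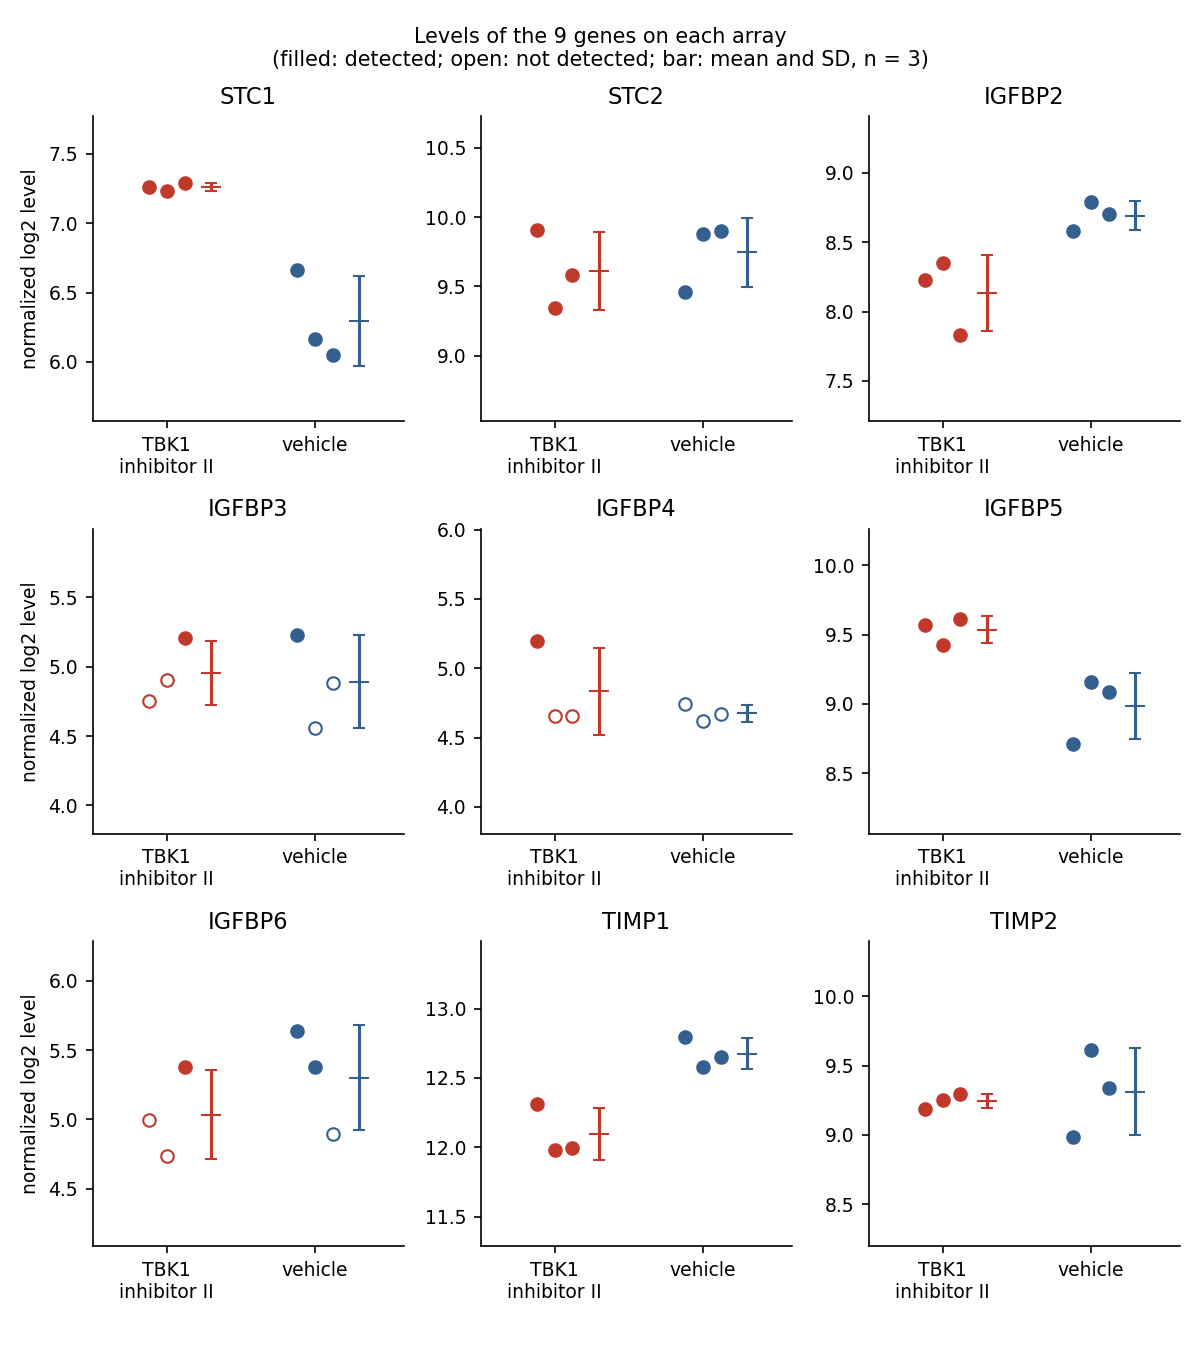
Normalized log2 level (vertical axis) of each of the 9 genes on the 3 inhibitor arrays (red, left) and the 3 vehicle arrays (blue, right), with each group's mean and SD as a bar; filled points were detected and open points were not. The groups are apart for STC1 (7.26 ± 0.03 with the inhibitor, 6.29 ± 0.33 with vehicle), IGFBP5, IGFBP2 and TIMP1, and overlap for the other 5 genes.

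STC1 encodes stanniocalcin 1, a glycoprotein first known as a calcium-regulating hormone of fish and in mammals a locally acting factor. Its probe had signal intensities of 222.3, 266.5 and 308.8 in inhibitor replicates 1, 2 and 3, against 144.8, 134.2 and 190.7 in vehicle replicates 1, 2 and 3. It was detected on all 6 arrays. On the normalized log2 scale these levels were 7.26, 7.23 and 7.29 with the inhibitor and 6.66, 6.16 and 6.05 with vehicle. The inhibitor arrays lay close together and above every vehicle array, and vehicle replicate 1 was the nearest to them.

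The fitted log2 fold change of STC1 was 0.97 ± 0.19 (SE, n = 3 per group, 95% confidence interval 0.54 to 1.39, limma adjusted p = 0.0298), a 1.95-fold rise. The deposited processed values gave a smaller difference for STC1, 0.44 (adjusted p = 0.0162). The call did not survive the loss of most single arrays: the adjusted p was 0.0946, 0.114 and 0.121 without inhibitor replicates 1, 2 and 3, 0.0536 and 0.0635 without vehicle replicates 2 and 3, and 0.0244 without vehicle replicate 1, with log2 fold changes of 0.84 to 1.16.

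STC2 encodes the related stanniocalcin 2, which is known as a target of oestrogen signalling in breast cells and of the unfolded protein response. Its log2 levels were 9.91, 9.35 and 9.58 in the inhibitor samples and 9.46, 9.88 and 9.90 in the vehicle samples. The ranges overlapped almost completely. The difference was -0.13 ± 0.20 (log2, SE), with a 95% confidence interval of -0.59 to 0.32 (limma adjusted p = 0.732). Whether the response of STC1 differed from that of STC2 was not tested.

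The named genes with the pattern nearest to that of STC1 over the 6 arrays were found by the root mean square distance between log2 levels, each gene centred on its own mean. They were LUC7L, a splicing factor (distance 0.063), SCAND3 (0.076) and FAM13B (0.078). Their log2 fold changes were 0.93, 0.90 and 0.95, with limma adjusted p-values of 0.0336, 0.0435 and 0.0232. Values close to those of STC1 follow from the choice by likeness over these same 6 arrays. The other kept probe of LUC7L had -0.33, so the likeness holds for the brighter probe, and the mean of its probes gave 0.30 (adjusted p = 0.241). The other SCAND3 probe had 0.70 (adjusted p = 0.0758), and SCAND3 did not pass with no filter on dim probes (0.0579). Without any 1 inhibitor sample none of the 3 passed (0.0816 to 0.147), and LUC7L and SCAND3 passed only without vehicle replicate 1 and FAM13B only without vehicle replicate 1 or 2.

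Among the IGF-binding proteins, IGFBP5 was the member with a higher level on all inhibitor arrays. IGFBP5 binds IGFs with high affinity and also binds extracellular matrix. The probe that stood for it had log2 levels of 9.57, 9.42 and 9.61 in the inhibitor samples and 8.71, 9.15 and 9.08 in the vehicle samples. This gave a log2 fold change of 0.55 ± 0.17 (SE, 95% confidence interval 0.16 to 0.94), and it did not pass the test (limma adjusted p = 0.0930). Its other probe had 0.59 ± 0.21, and the groups did not overlap there either.

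IGFBP2, a binding protein often abundant in tumours and fetal tissue, had the opposite sign. Its log2 levels were 8.23, 8.35 and 7.83 in the inhibitor samples and 8.58, 8.79 and 8.71 in the vehicle samples. Inhibitor replicate 3 was the lowest array, and every inhibitor array lay below every vehicle array. The log2 fold change was -0.56 ± 0.18 (SE, 95% confidence interval -0.96 to -0.15, limma adjusted p = 0.100). IGFBP2 and IGFBP5 are direct neighbours among the protein-coding genes of chromosome 2 in the RefSeq gene table. Of the next genes on the IGFBP2 side, RPL37A had 0.11 ± 0.17 (adjusted p = 0.744) and SMARCAL1 -0.11 ± 0.16 (adjusted p = 0.716); both were named for their position.

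The remaining binding proteins were at or near background. IGFBP6, which prefers IGF2, had signal intensities of 115.8, 115.5 and 152.5 in the inhibitor samples, with detection on 1 of 3, and of 113.7, 113.9 and 141.9 in the vehicle samples, with detection on 2 of 3. Its log2 fold change was -0.27 ± 0.24 (SE, limma adjusted p = 0.534). IGFBP3, the main IGF carrier of blood and a known p53 target, was detected on inhibitor replicate 3 and vehicle replicate 1 with its brighter probe, and on vehicle replicate 1 with the other. IGFBP4, a substrate of PAPPA, was detected on inhibitor replicate 1 and on 0 vehicle arrays. Without the filter on dim probes, their log2 fold changes were 0.07 ± 0.20 for the brighter IGFBP3 probe and 0.16 ± 0.16 for IGFBP4 (adjusted p = 0.909 and 0.685). No level of either can be told from background on most arrays.

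TIMP1, which inhibits most matrix metalloproteases and was among the brightest transcripts here (percentile 96.9 of tested genes by mean level), was lower on every inhibitor array. Its signal intensities were 4460, 4684 and 4905 in the inhibitor samples and 5170, 4963 and 8617 in the vehicle samples. The log2 levels were 12.32, 11.98 and 11.997 with the inhibitor and 12.79, 12.58 and 12.65 with vehicle. The log2 fold change was -0.58 ± 0.16 (SE, 95% confidence interval -0.95 to -0.21), short of the threshold (limma adjusted p = 0.0726).

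TIMP2, which also takes part in the activation of MMP2 at the cell surface, had log2 levels of 9.19, 9.25 and 9.29 in the inhibitor samples and 8.98, 9.61 and 9.34 in the vehicle samples. The inhibitor arrays lay within the vehicle range, and the fitted log2 fold change was -0.07 ± 0.19 (SE, 95% confidence interval -0.49 to 0.35, limma adjusted p = 0.863). The other TIMP2 probe had 0.15, so the sign of TIMP2 differed between its probes.

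**Figure D2:**
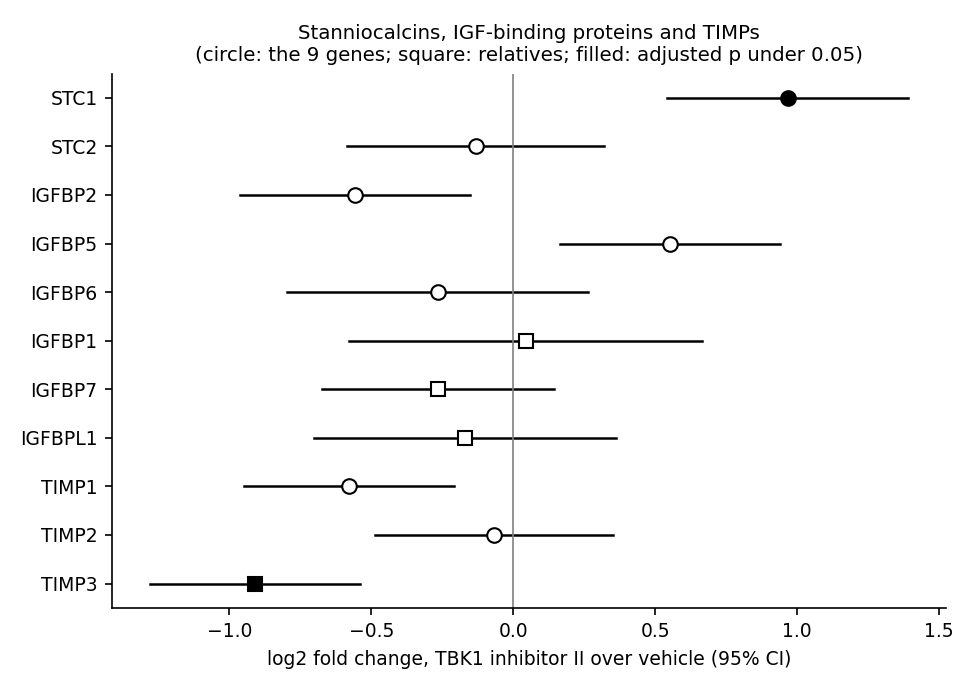
Log2 fold change, TBK1 inhibitor II over vehicle (horizontal axis), with its 95% confidence interval, for the tested genes of the set (circles) and for tested relatives from the same families (squares); filled symbols passed an adjusted p of 0.05. STC1 (0.97) and TIMP3 (-0.91) are the filled symbols, and the intervals of IGFBP5, IGFBP2 and TIMP1 exclude 0 although these genes did not pass after adjustment.

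How the signal was processed decided the calls of 3 members. With the deposited processed values, 4 of the 7 tested members passed, STC1 and IGFBP5 higher (0.44 and 0.47) and IGFBP2 and TIMP1 lower (-0.41 and -0.58), with limma adjusted p-values of 0.0162, 0.0258, 0.0399 and 0.0134. In that setting 11.7% of all genes passed. The same 4 members passed with quantile normalization and no background correction, where 11.8% of all genes passed, and with a larger background offset of 50, where 10.2% passed. None of these 4 members changed sign in any of the 15 alternative settings. The intensity trend and robust prior called STC1, IGFBP5 and TIMP1 (10.7% of all genes), and detection p under 0.01 on all 6 arrays called STC1 and TIMP1 (10.3%). STC1 was the 1 member called with median centring (6.14%), with no filter on dim probes (3.49%), with the mean of a gene's probes (5.50%) and without vehicle replicate 1 (2.31%). With median centring the fit gave all named genes the same SE (0.298), so adjusted p-values there do not measure each gene's own spread. No member passed without vehicle replicate 2 (3.72% of all genes), vehicle replicate 3 (2.16%), inhibitor replicate 1 (0.159%) or inhibitor replicate 2 or 3 (0.0178% each), nor with the replicate number as a block (0.345%).

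**Figure D3:**
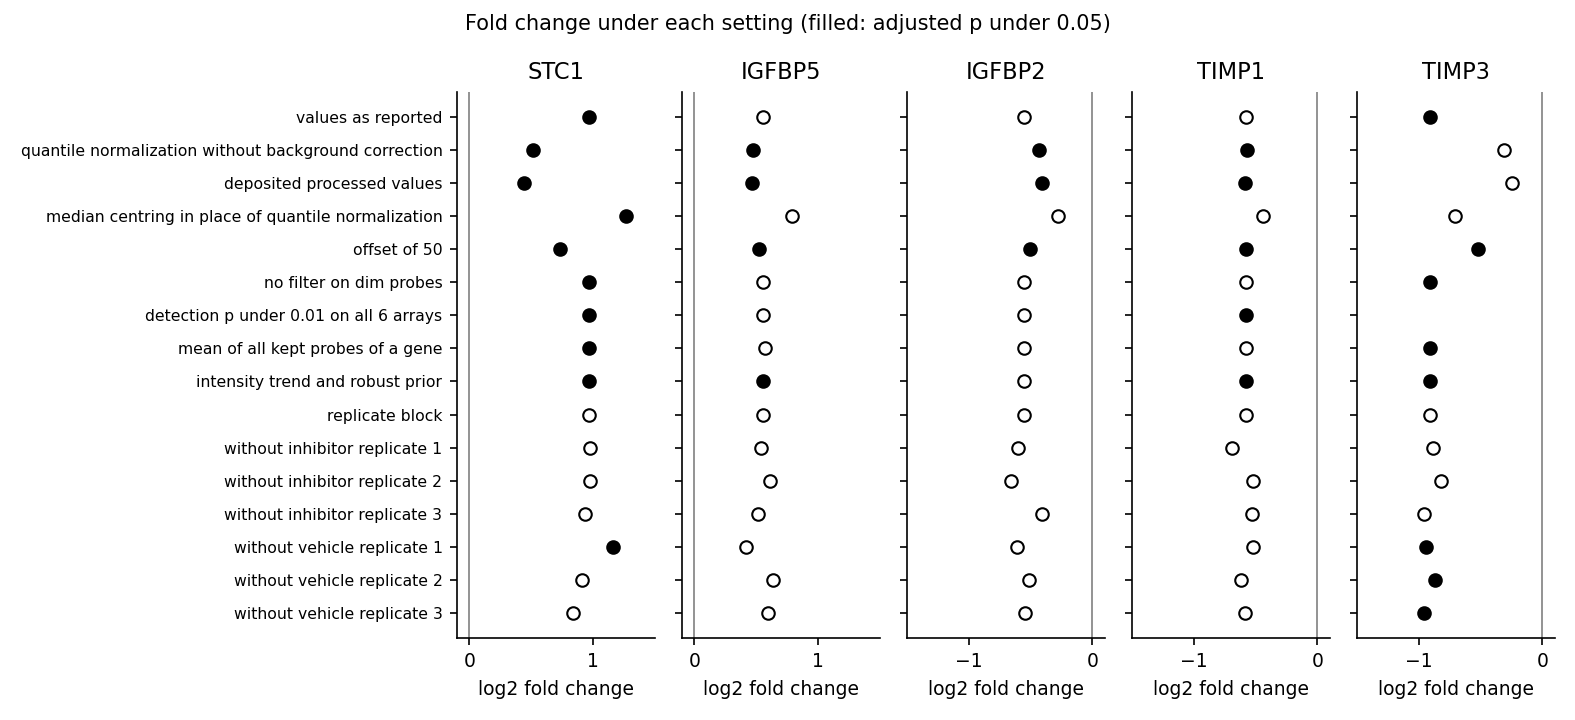
Log2 fold change, TBK1 inhibitor II over vehicle (horizontal axes), of 4 members and their relative TIMP3 under each processing setting (rows). For the deposited processed values it is the difference on their own scale. Filled points had an adjusted p under 0.05. STC1 and IGFBP5 stay above 0 and IGFBP2, TIMP1 and TIMP3 below 0 in every setting shown, while the calls of all 5 genes depend on the setting, and TIMP3 has no value where detection p under 0.01 was required.

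The 250 bases before the annotated starts of IGFBP5 and TIMP1, members whose groups did not overlap, are shown here from the RefSeq promoter table (build GRCh38.p14, 5′ to 3′ on the gene's strand). IGFBP5 is at chr2:216695550-216695799 on the minus strand and TIMP1 at chrX:47582186-47582435 on the plus strand. Capitals mark matches to 4 motifs searched on both strands: the TATA box (TATAAA or TATTTA), the GC box (GGGCGG), the AP-1 site (TGAGTNA) and the NF-kB consensus.
IGFBP5: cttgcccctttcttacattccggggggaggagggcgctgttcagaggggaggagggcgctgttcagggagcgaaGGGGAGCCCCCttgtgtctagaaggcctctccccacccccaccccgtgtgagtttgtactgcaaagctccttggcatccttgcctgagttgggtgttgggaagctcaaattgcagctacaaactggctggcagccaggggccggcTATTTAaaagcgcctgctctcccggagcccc
TIMP1: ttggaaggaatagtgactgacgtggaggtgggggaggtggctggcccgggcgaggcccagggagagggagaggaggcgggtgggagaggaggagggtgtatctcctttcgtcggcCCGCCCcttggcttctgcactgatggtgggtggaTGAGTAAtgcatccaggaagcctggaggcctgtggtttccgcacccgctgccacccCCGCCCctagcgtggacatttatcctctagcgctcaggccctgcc

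The IGFBP5 window holds a TATA box from -31 to -26 relative to the start and overlapping NF-kB consensus matches from -176 to -166. The TIMP1 window holds 1 AP-1 match from -101 to -95 and 2 GC boxes on the opposite strand. Of 35116 windows of this length in the table, 18.7% hold the TATA box, 42.6% the GC box, 10.8% the AP-1 site and 9.96% the NF-kB consensus. The NF-kB match is not particular to IGFBP5: 1 of the 3 windows of IGFBP2, which was lower on every inhibitor array, holds one from -176 to -167, and that of IGFBP6 holds one from -101 to -92. A match is a match of letters and says nothing of binding. The windows searched covered 7 of the 9 genes, all but STC1 and TIMP2. Member windows on the chromosome of STC1 were left out of the search.

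Of the family relatives outside the set, 1 of 4 tested genes, TIMP3, fell and 0 rose, against 1.86% and 3.59% of all genes tested. TIMP3 is the TIMP that stays bound to the matrix and that also inhibits ADAM17 and ADAMTS enzymes. Its log2 levels were 5.03, 4.95 and 5.27 in the inhibitor samples and 5.997, 6.13 and 5.84 in the vehicle samples. The log2 fold change was -0.91 ± 0.16 (SE, limma adjusted p = 0.0269). The transcript was dim, with detection p-values of 0.0494, 0.0481 and 0.0156 on the inhibitor arrays, and the deposited processed values gave -0.25 (adjusted p = 0.0706). Without inhibitor replicates 1, 2 and 3 the adjusted p was 0.0867, 0.114 and 0.0967. TIMP3 also did not pass with quantile normalization and no background correction (-0.31, adjusted p = 0.0544) or with the replicate number as a block (0.0658). With median centring it had -0.71 (adjusted p = 0.142, from the SE common to all named genes). It passed in 7 of the 14 alternative settings where it was tested. IGFBP7, IGFBPL1 and IGFBP1 had -0.27, -0.17 and 0.04 (adjusted p = 0.410, 0.707 and 0.942), and TIMP4 was detected on 0 of the 6 arrays.

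Among the ligands, receptors and adaptors of the IGF pathway, 1 of 8 tested genes fell and 0 rose. The shares over all genes tested were 1.86% and 3.59%. The gene that fell was IRS4, an adaptor that couples insulin and IGF receptors to PI3K. Its log2 levels were 6.93, 6.81 and 7.05 in the inhibitor samples and 8.19, 8.32 and 8.40 in the vehicle samples, with no overlap. The log2 fold change was -1.37 ± 0.15 (SE, limma adjusted p = 0.00938), and it passed in 13 of 15 alternative settings, the exceptions being the fits without inhibitor replicate 2 (adjusted p = 0.0704) or inhibitor replicate 3 (0.0612). With the deposited values the difference of IRS4 was -0.84 (adjusted p = 0.00143). IGF1R, IGF1 and IGF2 were detected on 0 arrays with the probes present. The median log2 fold change of the list was -0.09, against 0.03 for all genes.

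Of the proteases known to cut IGF-binding proteins, 1 of 5 tested genes fell and 0 rose, against 1.86% and 3.59% of all genes tested. HTRA1, a secreted serine protease with IGFBP5 among its substrates, had log2 levels of 8.11, 7.95 and 7.73 in the inhibitor samples and 8.49, 8.59 and 8.77 in the vehicle samples. Its log2 fold change was -0.69 ± 0.17 (SE, limma adjusted p = 0.0481). The call ended when any 1 of the 6 samples was left out (adjusted p = 0.0626 to 0.182). PAPPA, the protease that stanniocalcins inhibit, was detected on 2 inhibitor arrays and 0 vehicle arrays and was too dim for the test. The list's median was -0.20, with all 5 log2 fold changes below 0, against 5364 of all 11582 genes tested. With median centring in place of quantile normalization that median was 0.12, where the median of all genes was 0.243. HTRA1 then had -0.42 (adjusted p = 0.460, from the SE common to all named genes in that fit).

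Metalloproteases that TIMPs bind, with their regulators, had 2 risers and 0 fallers among 9 tested genes, against 3.59% and 1.86% of all genes tested. ADAMTS1, a secreted protease of proteoglycans, had log2 levels of 11.09, 11.16 and 11.18 in the inhibitor samples and 9.20, 10.14 and 10.25 in the vehicle samples. It rose by 1.28 ± 0.26 (SE, limma adjusted p = 0.0316), and vehicle replicate 1 was the lowest array by a wide margin. RECK, a membrane-anchored inhibitor of matrix metalloproteases, rose by 1.12 ± 0.23 (adjusted p = 0.0316) and by 0.78 on its other probe. Of the matrix metalloprotease genes on the list, MMP11 and MMP16 were detected on all 6 arrays, with log2 fold changes of -0.42 and 0.41 (adjusted p = 0.227 and 0.156). ADAM10 and ADAM17, both sheddases, had 0.05 and 0.15 (adjusted p = 0.943 and 0.690). Without inhibitor replicates 1, 2 and 3 the adjusted p of ADAMTS1 was 0.0946, 0.115 and 0.121, and that of RECK passed only without vehicle replicate 3 (0.0312), against 0.0609 to 0.130 without any other sample. RECK had 0.56 with the deposited values (adjusted p = 0.0186), and ADAMTS1 did not pass with no filter on dim probes (0.0502).

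The plasminogen system and other secreted protease inhibitors had 1 riser and 1 faller among 11 tested genes, against 3.59% and 1.86% of all genes. SERPINI1, neuroserpin, an inhibitor of tissue plasminogen activator, rose by 1.501 ± 0.18 (SE, limma adjusted p = 0.0108), with 1.65 on its other probe. SERPINH1, a collagen chaperone of the serpin fold without known inhibitor activity, fell by 1.15 on the log2 scale (SE 0.17, adjusted p = 0.0189). The target of neuroserpin, PLAT, had -0.27 (adjusted p = 0.5004). Without inhibitor replicate 2 or 3 the adjusted p was 0.0704 or 0.0655 for SERPINI1, and without inhibitor replicate 1, 2 or 3 it was 0.0694, 0.0943 or 0.0967 for SERPINH1. SERPINH1 also did not pass with median centring (-0.85, adjusted p = 0.0611, from the SE common to all named genes in that fit). With the deposited values it had -0.53 (adjusted p = 0.00921).

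Cytokines, chemokines and growth factors of the senescence secretome had 2 risers and 0 fallers among 17 tested genes. Over all genes tested, 3.59% rose and 1.86% fell. Of the 40 genes of this list on the array, 19 were detected on 0 arrays, among them IL6, IL1A and IL1B. CCL2, a chemokine that attracts monocytes, was detected on 3 inhibitor arrays and 0 vehicle arrays and on the background-corrected scale its level was at least 4.77-fold higher with the inhibitor (adjusted p = 0.000384, limma). The bound depends on that correction: the log2 fold change of CCL2 was 1.67 with an offset of 50 and 1.11 without background correction. With the deposited values the difference of CCL2 was 0.93, and it passed in each of these settings. For the bound each vehicle array counted at its own level or at the dimmest detected probe, whichever was higher. CCL20, a chemokine of epithelial inflammation, rose by 1.18 ± 0.23 (SE, adjusted p = 0.0298). It had 0.44 without background correction and 0.35 with the deposited values (adjusted p = 0.0260 and 0.0385). CXCL8 had 0.02 (adjusted p = 0.961). CCL20 passed without vehicle replicates 2 and 3 (0.0490 and 0.0312) and not without any other sample (0.0507 to 0.118). CCL2 met the detection filter only through the 3 inhibitor arrays, where it was high, so it could not be fitted without an inhibitor sample. With no filter on dim probes its adjusted p was 0.00347.

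Genes of cell cycle arrest and nuclear senescence markers had 2 risers and 1 faller among 19 tested genes. The shares over all genes tested were 3.59% and 1.86%. The CDK4/6 inhibitor genes CDKN2B and CDKN2D rose by 0.68 ± 0.15 and 0.82 ± 0.19 (SE, limma adjusted p = 0.0414 and 0.0438), and CCNE1, cyclin E1, fell by 0.66 (SE 0.16, adjusted p = 0.0457). CDKN1A, CDKN2A, LMNB1 and GLB1, the gene behind senescence-associated beta-galactosidase, had 0.09, -0.32, -0.29 and -0.01 (adjusted p = 0.828, 0.322, 0.346 and 0.982). The 3 calls ended when any 1 sample was left out, with adjusted p-values of 0.0661 to 0.156 for CDKN2B, 0.0535 to 0.160 for CDKN2D and 0.0651 to 0.145 for CCNE1. The other CDKN2B probe had 0.49 (adjusted p = 0.231), the mean of its probes did not pass (0.58, adjusted p = 0.0703) and the deposited values gave 0.38 (adjusted p = 0.0208). CDKN2D did not pass with no filter on dim probes (0.0524), nor CCNE1 with median centring (-0.38, adjusted p = 0.515). The latter p-value comes from the SE common to all named genes in that fit.

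**Figure D4:**
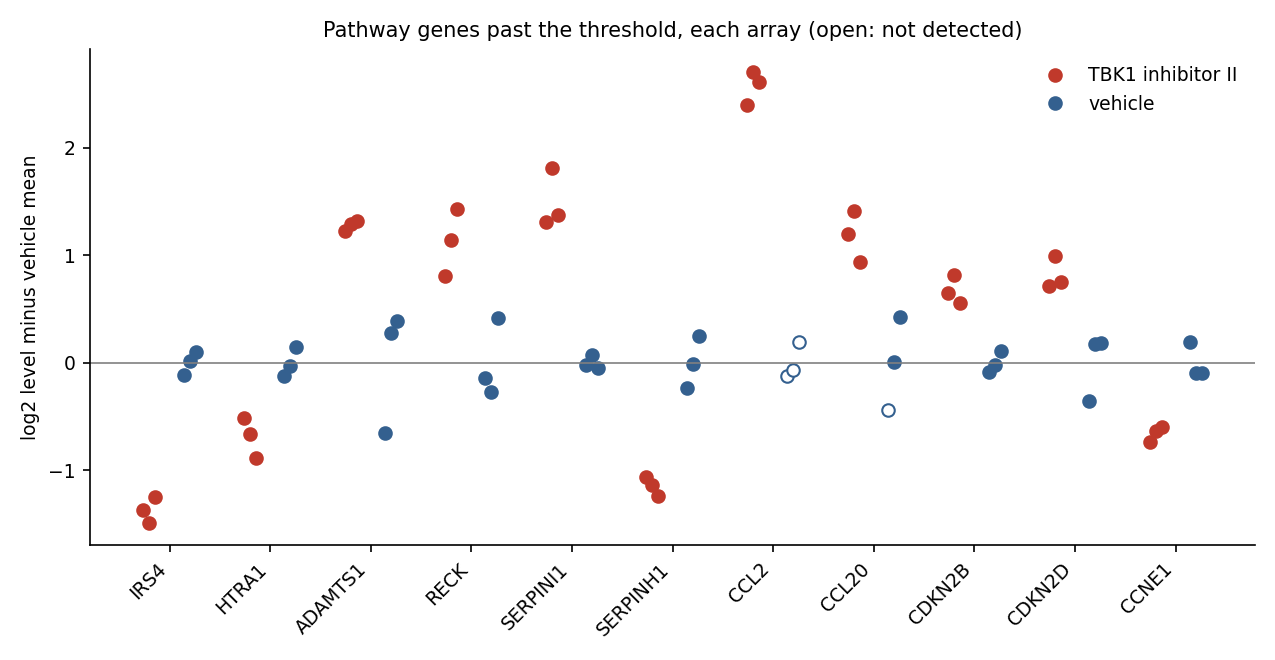
Log2 level of each array minus the vehicle mean (vertical axis) for the 11 genes of the 6 pathway lists that passed the test, with inhibitor arrays in red to the left of vehicle arrays in blue; open points were not detected. All groups are apart, which largely follows from the choice of these genes by the test on the same arrays. Over all genes tested, 31.5% had groups that did not overlap. CCL2 (detected on 0 vehicle arrays) and IRS4 (-1.37) stand at the 2 ends.

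Stromal cells are rich sources of IGF-binding proteins and TIMPs, so their markers are given beside these values. All 6 samples are labelled as the line HCC1954, and no label names stromal, blood or endothelial cells. Of 10 fibroblast markers, COL1A1, COL3A1 and LUM were detected on all 6 arrays and COL1A2, PDGFRB, FAP and THY1 on 0. The summed level of the 10 was 1199 to 1260 in the inhibitor samples and 977.1 to 1045 in the vehicle samples. DCN, decorin, rose by 1.29 ± 0.21 (SE, limma adjusted p = 0.0198) and the other 3 tested markers did not pass. Of all genes tested, 3.59% rose. DCN did not pass without inhibitor replicate 1, 2 or 3 (0.0838, 0.0943 and 0.1002), and it had 0.41 with the deposited values (adjusted p = 0.0174). Of 9 leukocyte and endothelial markers, CD68 was detected on all 6 arrays and 7 on 0. The summed level of the 9 was 433.1 to 458.5 with the inhibitor and 350.1 to 369.2 with vehicle. For the 13 breast epithelial markers the sums overlapped, at 534.3 to 716.3 with the inhibitor and 613.0 to 648.9 with vehicle. Undetected markers count in these sums at background level, and 31.5% of single genes tested had groups that did not overlap. CD14, 1 of 2 tested leukocyte and endothelial markers, rose by 1.06 ± 0.25 (adjusted p = 0.0429), against 3.59% of all genes tested. It did not pass with the deposited values (0.32, adjusted p = 0.0590) or with no filter on dim probes (0.0669). Nor did CD14 pass without any 1 sample other than vehicle replicate 3 (0.0836 to 0.166). The part of these markers in the rise of STC1 was not tested. In bulk RNA, fewer cells of a type and less RNA per cell cannot be told apart. GSDMB, DCN, CD14 and the genes of the lists with adjusted p-values over 0.05 were named after their values were seen.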

How the data were processed

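Per the file headers, the deposited table holds linear signal intensity for every probe and array, without normalization between arrays. It also holds the deposited detection p-value of each. The authors' deposited processed values are on a log2-like scale with column medians of 7.16 on all 6 arrays and keep the order of the signal within each array (Spearman rho 1). Group differences in them followed those of log2 quantile-normalized signal (r = 0.997, slope 0.930 across probes), so the direction is that of the signal and genes were not centred. No label or header used here states their transformation or log base. The submitters' processing notes name lumi.

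Signal was corrected and normalized with neqc of limma 3.58.1 in R 4.3.3 (normexp from detection p-values, offset 16, quantile, log2). The 19958 probes detected on at least 3 arrays entered lmFit and eBayes with no covariate. The brightest kept probe stood for a gene. Adjustment was by Benjamini-Hochberg over 11582 genes at a threshold of 0.05; for a gene's other probes it ran over all kept probes. Of 47321 probes, 30112 had 1 gene symbol in the platform annotation, 8 several and 17201 none. Symbols were updated through gene IDs with the RefSeq table of GRCh38.p14 (30073 matched). The array number limits precision. The files name no slide or scan batch. The fit, the choice of probe and the adjustment were tested on simulated data, which did not cover background correction, normalization or the detection filter.

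The 9 members and the lists were chosen with earlier results of these data known. Named are all members and relatives, TBK1 and ERBB2, up to 6 passing genes (or 2 with the smallest p) per pathway list, and the 3 genes nearest to a passing member. Others are named for a stated reason. No pairing was used because the replicate numbers do not state a shared culture or day. Deviations from the group means correlated at -0.17, 0.01 and 0.13 in same-numbered samples and at -0.23 to 0.20 in other pairs. With 3 arrays per group this check cannot exclude a pairing.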

Additional observations from a re-analysis of the deposited data

How the results depend on the processing

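The 9 members were recomputed under 15 alternative settings where they passed the filter, and STC1, IGFBP5, IGFBP2 and TIMP1 kept their signs in all of them. The number of genes changed was 631, of which 1 member. It was 1367 with quantile normalization and no background correction, 1355 with the deposited processed values and 1176 with an offset of 50, each with 4 members. It was 1240 with an intensity trend and robust prior (3 members) and 894 with detection p under 0.01 on all 6 arrays (2 members). With the replicate number as a replicate block, 40 genes and 0 members passed, which rests on numbers that share only a label. STC1 then had an adjusted p of 0.0650. With 1 sample left out at a time, 2 to 422 genes and 0 to 1 members passed. The low counts came without an inhibitor sample (18, 2 and 2 genes) and the fits without a vehicle sample gave 265, 422 and 244. Median centring moved the median of all genes to 0.243 and the share of rises among calls to 94.9%, against 65.9% as reported, with STC1 called in both. Its fit gave all named genes the same SE (0.298), so calls gained or lost there do not measure each gene's own spread. Signs turned only for genes that passed in no setting: STC2 (0.082) and TIMP2 (0.16) with median centring, TIMP2 with the mean of its probes (0.041), and, over the fits without 1 sample, STC2 (-0.28 to 0.00032), TIMP2 (-0.23 to 0.083), IGFBP1 (-0.22 to 0.28) and IGFBPL1 (-0.30 to 0.024). Over all named genes and settings, 89 calls were lost, 12 gained and 280 kept their side of the threshold and sign. Dim members (IGFBP3, IGFBP4, IGFBP6) lie too near background for a difference to be seen, and 3 arrays per group limit all estimates.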
